A study of Mus musculus with 4 samples.

Results

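The 52 genes described here encode ribosome biogenesis factors and subunits and partners of RNA polymerase I. They were chosen by name, and all 52 were found, each at 1 Ensembl ID, among the 55536 genes of the count tables. The cells were primary ear fibroblasts of C57BL/6 mice; the sources used here do not state how many animals they came from. The states, AF357425-High and AF357425-Low, are named after a small nucleolar RNA (snoRNA) of the C/D box class from the imprinted Dlk1-Dio3 locus, and the labels describe them as AF357425 overexpression and AF357425 inhibition. The treatment protocol in the labels instead names gapmers against AF357425 or a scrambled control, so the transfection behind each state is not settled by the labels. All cells were kept 48 h with KN93, an inhibitor of a calmodulin-dependent kinase, before 24 h of transfection. In each state, RNA that came down with fibrillarin antibody and RNA of whole-cell lysate were sequenced, which gives 4 libraries with 1 in each group, and the labels give removal of ribosomal RNA for the pulldown samples. Replicates to check a difference are thus lacking, and the intervals cover counting error alone. They may be too narrow even for that, because PCR copies of a molecule cannot be recognised in these reads. In bulk RNA, fewer cells with a transcript and less of it per cell cannot be told apart.

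Ribosome production starts in the nucleolus, where RNA polymerase I transcribes the ribosomal RNA precursor. Initiation needs Ubtf, which coats the ribosomal DNA, a selectivity complex that holds Taf1d, and Rrn3, which brings the polymerase to it. A large assembly called the small-subunit processome folds and cuts the precursor, with the UTP-A and UTP-B complexes as early parts of it, and a separate set of factors builds the large subunit. Fibrillarin, the protein pulled down here, methylates this precursor under the guidance of C/D box snoRNAs. Several genes of the set also carry snoRNAs in their introns. These roles are known mainly from yeast and human cells. The measurements below are of the messenger RNAs of these factors, not of the proteins.

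Reads assigned to genes came to 25857770 in the AF357425-High pulldown, 27832061 in the AF357425-Low pulldown, and, of whole-cell RNA, 22082565 in AF357425-High, against 21693030 in AF357425-Low. The mitochondrial ribosomal RNAs took 63.4% and 59.8% of the reads of the pulldowns, against 0.0926% and 0.0583% in whole-cell RNA. AF357425 had 0 reads in all 4 libraries, so the named states could not be checked with it. Of 9 fibroblast markers, 9 reached 1 CPM (counts per 1e6 gene-assigned reads) in each pulldown and 8 in each whole-cell library, while none of 3 keratinocyte and 3 endothelial markers did in any library. Of 5 leukocyte markers, none reached 1 CPM in the pulldowns and 3 did in whole-cell RNA, where their summed level was 8.11 CPM in AF357425-High and 7.79 CPM in AF357425-Low. All 3 smooth muscle markers reached 1 CPM in every library. Their sum in whole-cell RNA was 1310 CPM in AF357425-High and 1433 CPM in AF357425-Low, of which Acta2 made up 1296 and 1422 CPM. In the pulldowns the sum was 234 CPM in AF357425-High and 243 CPM in AF357425-Low. The summed chondrocyte markers were 111 CPM in the AF357425-High pulldown, 136 CPM in the AF357425-Low pulldown, and in whole-cell RNA 262 CPM for AF357425-High, against 185 CPM for AF357425-Low. Sox9 made up 78.2 and 95.6 CPM of this in the pulldowns and 169 and 148 CPM in whole-cell RNA. Col2a1 had 87.0 and 35.3 CPM in whole-cell RNA of AF357425-High and AF357425-Low, Cnmd had 4.48 and 0.645 CPM there, and Matn1 had 0 reads. The part of these other cell types in the results below was not tested.

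The 52 genes lay on 20 chromosomes, and their spans overlapped another annotated gene for 22 of them, a protein-coding one for 11. The sources used here do not state the strand setting of the counting, so reads of such genes could come in part from the neighbour. In the RefSeq promoter table, 43 of the genes had an entry, with 52 start sites in all. The stretch of 300 bases around the start (250 before, 50 after) held the E-box CACGTG at 12 of these 52 starts (23.1%), against 7.15% of all 32851 starts in the table and 7.84% of the 21263 starts of protein-coding genes. The ETS core CCGGAAG, read on both strands, was found at 17 starts (32.7%), against 11.6% of protein-coding starts, and the GC box GGGCGG at 38 (73.1%), against 46.2%. The letters TATAAA were found at 2 (3.85%), against 12.6%. The windows of the set had a median GC content of 59.7%, and those of protein-coding genes 56.3%. Over the 12 genes with an E-box the median log2 ratio of AF357425-High over AF357425-Low was 0.04 in the pulldown and 0.06 in whole-cell RNA, and over the 31 without it -0.05 and 0.06. The pulldown-over-whole-cell medians stood further apart, at -2.55 in AF357425-High and -1.83 in AF357425-Low with an E-box, against -1.79 and -0.95 without it. The ranges overlapped: in AF357425-High they ran from -3.05 to -0.16 with an E-box and from -3.89 to 0.91 without it. A link of these ratios with the E-box was not tested.

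The 250 bases upstream of the start are shown for the genes on which the results below turn: Heatr1 and Dimt1, which passed the 2-fold line between the states in the pulldown, Taf1d, whose ratios in pulldown and whole-cell RNA differed, Ncl, which stood high in the pulldowns, and Utp18, which had the highest ratio in whole-cell RNA. They are from RefSeq on GRCm38.p6, in the direction of transcription, at chr13:12395125-12395374 (plus strand, Heatr1), chr13:106946879-106947128 (plus, Dimt1), chr9:15305964-15306213 (plus, Taf1d), chr1:86359456-86359705 (minus, Ncl) and chr11:93885767-93886016 (minus, Utp18). The starts are those of the promoter entries and need not be the first base of the annotated span. The Taf1d stretch lies within the annotated span of Taf1d (15305953 to 15316997). The Dimt1 stretch ends within that of Dimt1, which begins at 106947071. Capitals mark the E-box, the ETS core and the GC box on either strand.
Heatr1: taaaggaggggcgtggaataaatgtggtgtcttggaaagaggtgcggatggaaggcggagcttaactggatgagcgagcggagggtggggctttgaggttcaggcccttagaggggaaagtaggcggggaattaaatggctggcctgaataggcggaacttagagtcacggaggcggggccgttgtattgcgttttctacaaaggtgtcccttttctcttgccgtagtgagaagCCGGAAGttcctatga
Dimt1: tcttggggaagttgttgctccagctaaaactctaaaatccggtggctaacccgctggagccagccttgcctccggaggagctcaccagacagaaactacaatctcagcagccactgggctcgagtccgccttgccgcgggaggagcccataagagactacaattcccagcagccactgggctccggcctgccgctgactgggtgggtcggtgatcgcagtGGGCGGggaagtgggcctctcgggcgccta
Taf1d: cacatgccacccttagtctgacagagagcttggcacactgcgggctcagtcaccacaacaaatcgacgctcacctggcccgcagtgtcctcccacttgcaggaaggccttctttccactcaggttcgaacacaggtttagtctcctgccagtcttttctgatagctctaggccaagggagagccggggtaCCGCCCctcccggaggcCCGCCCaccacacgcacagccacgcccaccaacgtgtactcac
Ncl: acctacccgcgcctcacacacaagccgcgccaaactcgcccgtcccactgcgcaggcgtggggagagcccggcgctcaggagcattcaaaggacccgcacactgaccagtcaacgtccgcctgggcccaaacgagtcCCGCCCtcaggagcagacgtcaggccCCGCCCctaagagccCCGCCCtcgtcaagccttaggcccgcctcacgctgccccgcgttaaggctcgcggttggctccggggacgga
Utp18: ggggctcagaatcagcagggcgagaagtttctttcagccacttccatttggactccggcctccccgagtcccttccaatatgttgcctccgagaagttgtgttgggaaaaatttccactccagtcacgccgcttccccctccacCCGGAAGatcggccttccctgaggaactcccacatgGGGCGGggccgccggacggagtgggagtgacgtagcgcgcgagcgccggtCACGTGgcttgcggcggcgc
The Utp18 stretch holds 1 E-box, 1 ETS core and 1 GC box, the E-box beginning at position -20 from the start. The Heatr1 stretch holds 1 ETS core, that of Dimt1 1 GC box, that of Taf1d 2 and that of Ncl 3.

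In whole-cell RNA the set differed little between the states. No gene of the 52 had its whole 95% interval beyond 2-fold, where 0.118% of all 13519 measured genes were higher in AF357425-High and 0.133% lower. Genes were measured where their mean over the libraries compared reached 1 CPM, which all 52 did. The median log2 ratio of AF357425-High over AF357425-Low, after scaling by the trimmed mean of M values (TMM), was 0.06 for the set and 0.00 for all genes. It was 0.11 for the set by library totals, where all genes had 0.06, and 0.03 over the 30 genes that overlap no other. The ratio was positive for 33 of 52 genes (63.5%), against 49.8% of all genes, and the whole interval lay above 0 for 19 (36.5%), against 19% of all genes. It lay below 0 for 7 (13.5%), against 19.6%. Intervals narrow with depth, so these shares also depend on how deeply a gene was read. Summed over the 52 genes, whole-cell RNA held 4364 CPM in AF357425-High (exact Poisson 95% interval 4337 to 4392) and 4034 CPM in AF357425-Low (4007 to 4061) by library totals. After TMM scaling the sums were 4279 CPM in AF357425-High, against 4115 CPM in AF357425-Low.

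The polymerase I subunits Polr1b and Polr1c had the lowest ratios of the set in whole-cell RNA, and the other 3 subunits had intervals that hold 0. Polr1b, the second-largest subunit (chromosome 2, 129100970 to 129128060), had 360 reads in AF357425-High, against 436 in AF357425-Low, a log2 ratio of -0.36 (-0.56 to -0.15). Polr1c, a subunit shared with RNA polymerase III, had 391 and 444 reads and a ratio of -0.27 (-0.47 to -0.07). The catalytic subunit Polr1a had 2849 and 2746 reads, a ratio of -0.03 (-0.11 to 0.05), and Polr1d, the other shared subunit, had -0.04 (-0.17 to 0.09). Polr1e had 0.06 (-0.17 to 0.29), and Twistnb, a subunit outside the set, 0.38 (0.19 to 0.57). Among the initiation factors, Rrn3 had 3108 reads in AF357425-High, against 2575 in AF357425-Low (0.19, 0.11 to 0.26) and Taf1d 2956 and 2293 (0.28, 0.20 to 0.36). Ubtf had -0.11 (-0.21 to -0.01) and Tcof1, the nucleolar protein treacle, -0.04 (-0.16 to 0.09). The 9 genes of this group had a median of -0.04 with 6 of 9 negative.

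The processome genes lay slightly above 0 in whole-cell RNA. Utp18, of the UTP-B complex (chromosome 11, 93859243 to 93885766), had 729 reads in AF357425-High, against 495 in AF357425-Low, a log2 ratio of 0.48 (0.31 to 0.64) and the highest of the set. Imp3, which binds the U3 snoRNA together with Imp4 and Mphosph10, had 762 and 554 reads (0.38, 0.22 to 0.54), while Imp4 had 0.04 (-0.07 to 0.16). Nat10, the acetyltransferase of cytidines in ribosomal RNA, had 1371 and 998 reads (0.38, 0.26 to 0.49); its span overlaps Caprin1. The 5 UTP-B genes had a median of 0.10 with 4 positive, the 6 UTP-A genes 0.12 with 4 positive, and the 17 other small-subunit genes 0.09 with 12 positive. Heatr1, of UTP-A, was the lowest of these with 1722 and 1904 reads (-0.23, -0.32 to -0.13). The 9 large-subunit genes had a median of 0.02, between Nop16 (-0.22, -0.41 to -0.03) and Nol9 (0.18, 0.06 to 0.30). Nucleolin (Ncl) and nucleophosmin (Npm1), abundant nucleolar chaperones, had 0.00 (-0.04 to 0.04) and 0.07 (0.03 to 0.11).

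**Figure D1:**
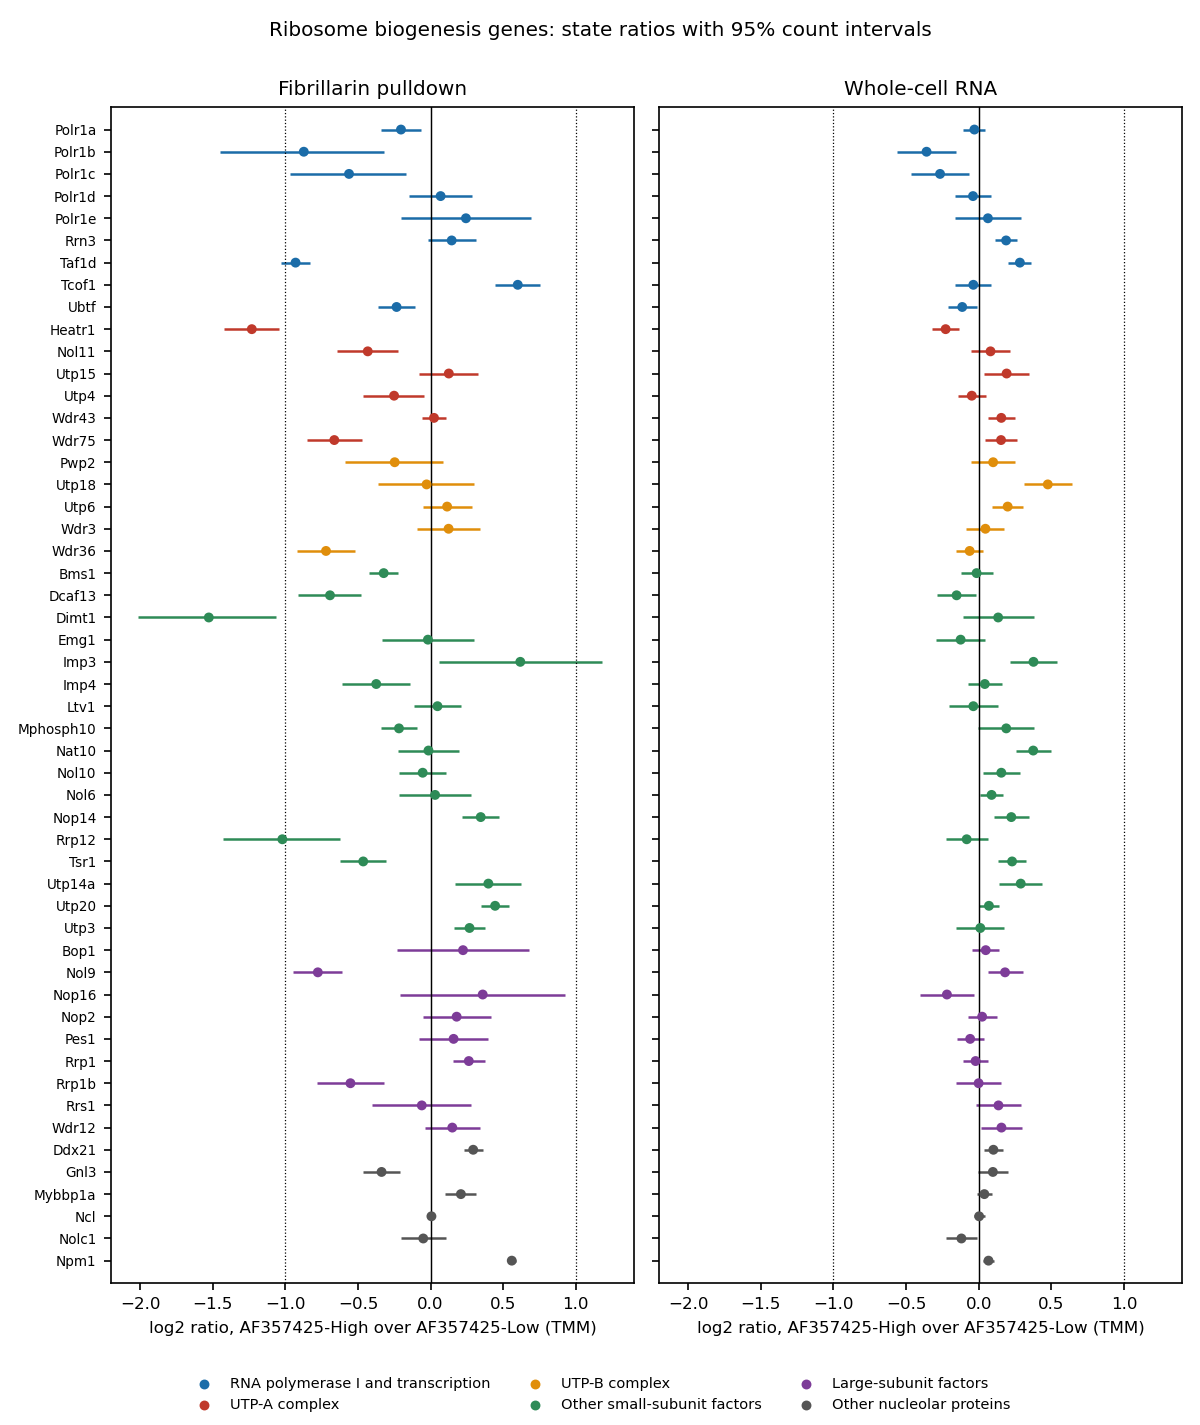
Log2 ratio of AF357425-High over AF357425-Low for each of the 52 genes in the fibrillarin pulldown (left) and whole-cell RNA (right), after TMM scaling, coloured by role. Points are ratios of 1 library each, bars are 95% count intervals, and dotted lines mark 2-fold; Dimt1 and Heatr1 lie beyond the line in the pulldown, and no gene does in whole-cell RNA.

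In the fibrillarin pulldown 2 genes of the set were below AF357425-Low in AF357425-High with the whole interval past 2-fold and none was higher. Over all 10736 measured genes these shares were 2.88% and 3.47%. Dimt1, the dimethyltransferase of adenosines in the small-subunit RNA (chromosome 13, 106947071 to 106961325), had 48 reads in the AF357425-High pulldown, against 184 in the AF357425-Low pulldown, or 1.86 and 6.61 CPM. Its log2 ratio was -1.53 (-2.02 to -1.06). Heatr1, a long HEAT-repeat protein of UTP-A that is needed for polymerase I transcription (chromosome 13, 12395375 to 12438893), had 303 and 946 reads, or 11.7 and 34.0 CPM, and a ratio of -1.23 (-1.42 to -1.04). Both overlap another annotated gene: Dimt1 the kinesin Kif2a, with a pulldown ratio of 0.02 (-0.07 to 0.11), and Heatr1 the pseudogene Gm5928, with 5 and 1 reads in the pulldowns. Dimt1 was not measured at a mean of at least 5 CPM, and among the 30 genes that overlap no other gene 0 passed the line.

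As a group the set was not displaced in the pulldown. Its median log2 ratio was -0.02, against 0.00 for all genes, and 27 of 52 were negative, against 5372 of 10736 genes. The whole interval lay below 0 for 20 genes (38.5%), against 31.9% of all genes, and above 0 for 10 (19.2%), against 32.4%. Library totals shifted the all-gene median by -0.31 and that of the set became -0.32, so directions here are relative to the bulk of the genes. At the line of 1.5-fold 5 genes were lower and 0 higher, where the shares of all genes were 7.64% and 7.94%. Beside Dimt1 and Heatr1 these were Taf1d, Nol9 and Rrp12, an export factor of pre-ribosomes, with 73 reads in the AF357425-High pulldown, against 197 in the AF357425-Low pulldown (-1.02, -1.43 to -0.63).

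**Figure D2:**
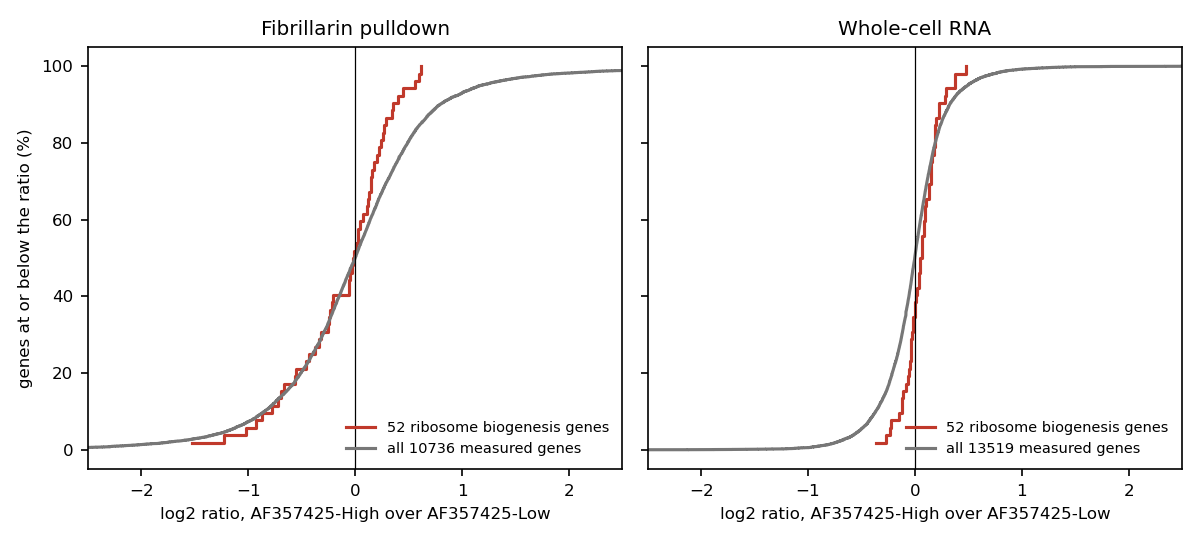
Cumulative share of genes (percent, y axis) at or below a given log2 ratio of AF357425-High over AF357425-Low (x axis) in the pulldown (left) and whole-cell RNA (right). The 52 genes (red) and all measured genes (grey; 10736 and 13519) cross 0 near the middle in the pulldown, and in whole-cell RNA the red curve is shifted right by a median of 0.06.

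Of the polymerase I genes, Taf1d had 1177 reads in the AF357425-High pulldown, against 2982 in the AF357425-Low pulldown, 45.5 and 107 CPM, and a log2 ratio of -0.93 (-1.03 to -0.83). By library totals it passed the 2-fold line (-1.24, -1.33 to -1.14), where 5.66% of all genes were lower and 2.22% higher. Polr1b had 39 and 95 reads (-0.87, -1.45 to -0.32), Polr1c 81 and 159 (-0.56, -0.97 to -0.17) and Polr1a 737 and 1129 (-0.20, -0.34 to -0.07). Polr1d (0.07, -0.15 to 0.29) and Polr1e (0.24, -0.21 to 0.69), a subunit of the polymerase's own heterodimer, had intervals that hold 0. Ubtf had 815 and 1275 reads (-0.23, -0.36 to -0.11) and Rrn3 548 and 659 (0.14, -0.02 to 0.31). Tcof1 stood at the other end with 725 and 636 reads (0.60, 0.44 to 0.76), the second highest of the set. The group's median was -0.20 over 9 genes, with 5 negative. The counts of Polr1b are the lowest of the set in the AF357425-High pulldown, which is why its interval is wide.

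Within the processome, the UTP-A genes had the lowest median, -0.34 over 6 genes with 4 negative. Wdr75 had 340 reads in the AF357425-High pulldown, against 716 in the AF357425-Low pulldown (-0.66, -0.85 to -0.48), Nol11 288 and 517 (-0.43, -0.65 to -0.22) and Wdr43 2097 and 2744 (0.02, -0.06 to 0.11). In UTP-B, Wdr36 had 309 and 677 reads (-0.72, -0.92 to -0.52), and the other 4 lay between -0.25 and 0.12. The 17 other small-subunit genes ran from Dimt1 to Imp3, which had 60 and 52 reads (0.62, 0.06 to 1.18), with a median of -0.02. Imp4, the partner of Imp3, had 239 and 412 reads (-0.37, -0.61 to -0.14), and Utp20 1680 and 1642 (0.44, 0.35 to 0.54). The large-subunit genes had a median of 0.16 with 6 of 9 positive. Of the PeBoW complex, Pes1 had 0.16 (-0.08 to 0.40), Bop1 0.22 (-0.23 to 0.68) and Wdr12 0.15 (-0.04 to 0.34), all with intervals that hold 0. Nol9, a polynucleotide kinase of large-subunit maturation, was the lowest of that group with 410 and 934 reads (-0.78, -0.95 to -0.61). Npm1 had 20178 and 18215 reads (0.56, 0.53 to 0.59) and Ncl 21749 and 28809 (0.01, -0.02 to 0.03), so the pair differed in the pulldown. Npm1 has processed pseudogenes, which makes its counts less certain.

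The state ratios of pulldown and whole-cell RNA were then set side by side. The difference of the log2 ratios, pulldown minus whole-cell, had its whole interval below 0 for 20 of 52 genes (38.5%), against 28% of the 11356 genes that reached 10 reads in every library. It lay above 0 for 8 (15.4%), against 28.6%. It passed 2-fold for Dimt1 (-1.66, -2.18 to -1.14) and Taf1d (-1.21, -1.34 to -1.09), both downward, and for none upward, where the shares of all genes were 1.64% and 2.65%. Heatr1 followed with -1.004 (-1.21 to -0.79), short of the line. All 6 UTP-A genes were negative, with a median of -0.36, although for 2 of them the interval held 0; the 5 UTP-B genes had a median of -0.35 with 4 negative. Tcof1 (0.64, 0.44 to 0.83), Nop16 (0.58, 0.01 to 1.15) and Npm1 (0.49, 0.44 to 0.54) had the highest differences. Across the 52 genes, which are not independent replicates, the state ratios in pulldown and whole-cell RNA had a Pearson correlation of 0.247 and a Spearman correlation of 0.197, and 19 genes were positive in both and 13 negative in both. By library totals 4 genes passed the line downward, where the share of all genes was 5.09%.

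**Figure D3:**
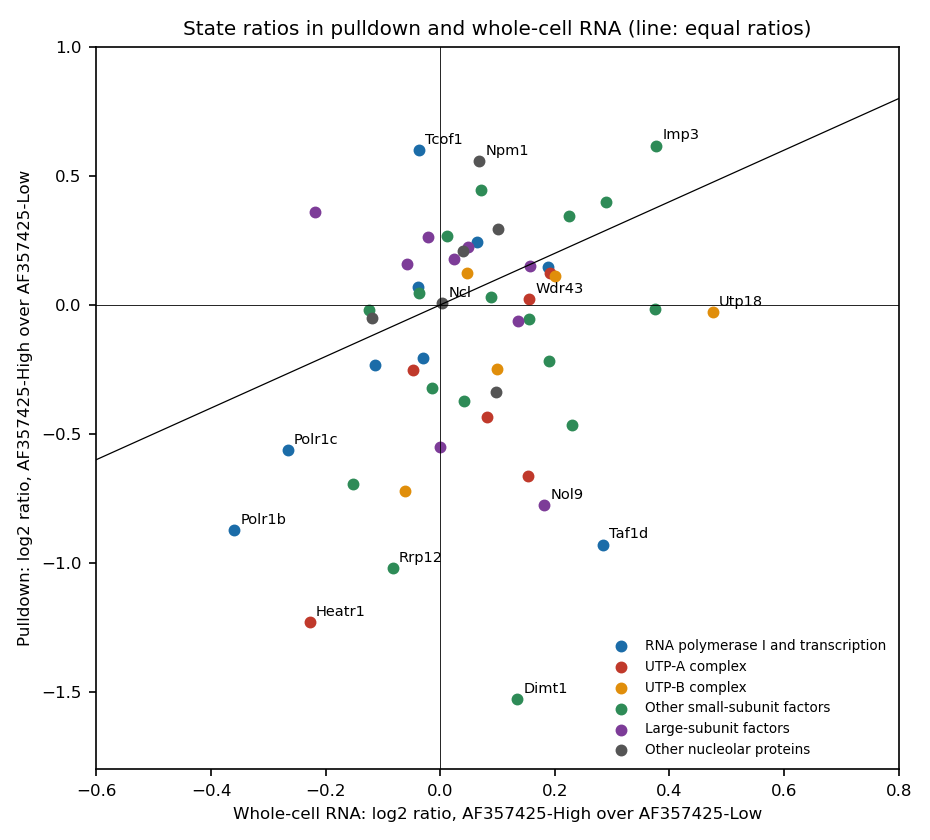
Log2 ratio of AF357425-High over AF357425-Low in the pulldown (y axis) against that in whole-cell RNA (x axis) for the 52 genes, coloured by role; the diagonal marks equal ratios and the axes have different scales. Taf1d and Dimt1 lie far below the diagonal, with whole-cell ratios of 0.28 (0.20 to 0.36) and 0.13 (-0.11 to 0.38, which holds 0). Polr1b and Polr1c are negative in both.

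Each pulldown was then set against the whole-cell library of its own state, by library totals. No pulldown with a control antibody is among the libraries. Recovery with fibrillarin thus cannot be told apart from background binding or from differences in library preparation. Of all genes, 60.6% of the 12382 measured in both states lay below whole-cell RNA with the whole interval past 2-fold in both states, and 1.42% were higher. Of the 52 genes 29 were lower in both states and 0 higher. These 29 were Polr1a, Polr1b, Polr1c, Polr1d, Polr1e and Rrn3; Heatr1, Utp4, Wdr75, Pwp2, Utp18, Utp6, Wdr3 and Wdr36; Emg1, Imp3, Imp4, Nat10, Nol6, Rrp12, Utp14a and Utp20; Bop1, Nop16, Nop2, Pes1 and Rrs1; and Mybbp1a and Nolc1. Their log2 ratios ran from -4.82 (Bop1) to -1.37 (Utp20) in AF357425-High and from -4.63 (Bop1) to -1.14 (Wdr75) in AF357425-Low. A further 14 passed the line in 1 state, of which Ncl and Mphosph10 passed it upward and the rest downward. In neither state did 9 pass it (Bms1, Ddx21, Ltv1, Nop14, Npm1, Rrp1, Tcof1, Utp3 and Wdr43). The median log2 ratio of pulldown over whole-cell RNA was -1.99 in AF357425-High and -1.37 in AF357425-Low, against -2.15 and -1.75 for all genes. With TMM scaling these medians of the set turned to 0.063 and 0.28, so the sign of the level is set by the scaling. Relative to that median, a scale chosen after the data were seen and on which the library total drops out, 9 genes of the set were above 2-fold in both states and 3 below, where 13.6% and 12.5% of all genes were. The order of the genes was alike in both states, with a Pearson correlation of 0.929 and a Spearman correlation of 0.897 over the 52 genes.

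The 9 genes that stood above the median of all genes in both states were Utp3, Ncl, Npm1, Mphosph10, Wdr43, Ltv1, Bms1, Nop14 and Ddx21. Utp3, a processome factor, had 52.6 CPM in the AF357425-High pulldown, against 28.0 CPM in AF357425-High whole-cell RNA, and 54.0 and 26.7 CPM in AF357425-Low. It lay 3.06 (2.92 to 3.20) and 2.76 (2.62 to 2.90) above the median of all genes on the log2 scale. Ncl had 841 and 505 CPM in AF357425-High and 1035 and 484 CPM in AF357425-Low, 2.89 (2.85 to 2.92) and 2.84 (2.81 to 2.88) above the median. Mphosph10, which holds the U3-binding subcomplex together, lay 2.71 (2.54 to 2.87) and 3.07 (2.91 to 3.24) above it. Npm1 lay 2.82 (2.79 to 2.85) and 2.29 (2.25 to 2.32) above it. By library totals none of the 52 was past 2-fold upward in AF357425-High, where 2.41% of all genes were, and Ncl and Mphosph10 were in AF357425-Low, where 2.58% were, at 1.10 (1.06 to 1.13) and 1.33 (1.17 to 1.49). The GTPase Bms1, the helicase Ddx21, the small-subunit factors Nop14 and Ltv1 and the UTP-A protein Wdr43 lay between 1.38 and 2.09 above the median in both states.

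The 3 genes that stood below it were Bop1, Imp3 and Nol6. Bop1, the scaffold of PeBoW, had 3.06 CPM in the AF357425-High pulldown, against 86.4 CPM in AF357425-High whole-cell RNA, and 3.23 and 80.3 CPM in AF357425-Low, which is -2.67 (-3.02 to -2.35) and -2.89 (-3.21 to -2.58) relative to the median of all genes. Its span overlaps Mroh1 and holds Scx, so its reads are uncertain. Imp3 had -1.74 and -2.03 and Nol6 -1.59 and -1.58 in AF357425-High and AF357425-Low. Nop16, a large-subunit factor, followed with -1.15 and -1.77. Imp3 and Mphosph10, which encode partners in one complex, were thus at opposite ends. The polymerase I subunits were spread: relative to the median of all genes Polr1a had -0.03 and 0.11 in AF357425-High and AF357425-Low, Polr1d 0.17 and 0.02, Polr1e -0.11 and -0.33, Polr1c -0.35 and -0.09, while Polr1b stood lowest with -1.28 and -0.81. Rrn3 had -0.58 in both states, Ubtf 0.92 and 1.01, Tcof1 1.34 and 0.66, and Taf1d 0.59 and 1.77.

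**Figure D4:**
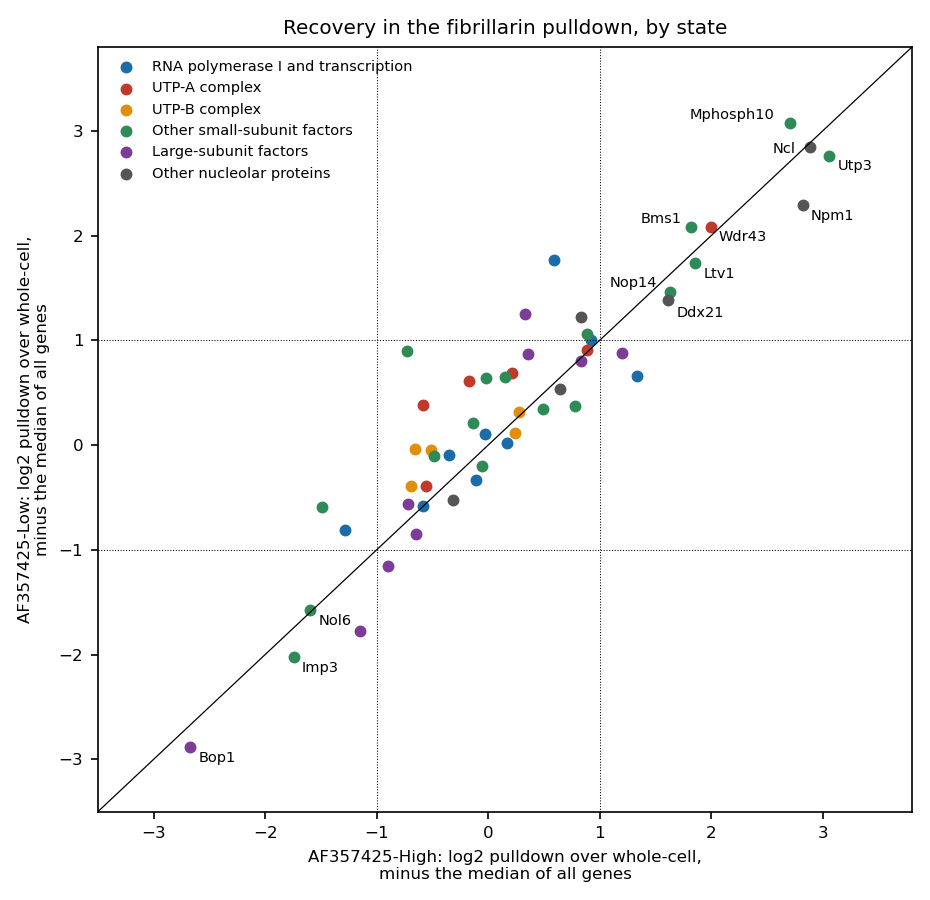
Log2 ratio of pulldown over whole-cell RNA, minus the median of all measured genes, in AF357425-High (x axis) and AF357425-Low (y axis) for the 52 genes, coloured by role. The diagonal marks equal values and dotted lines mark 2-fold; the 9 named genes at the upper right and the 3 at the lower left are past 2-fold with their whole interval in both states.

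Ncl and Npm1 took a large part of the pulldown reads of the set. Together they held 59.5% of its reads in the AF357425-High pulldown, against 54.1% in the AF357425-Low pulldown, against 22.8% and 23.2% in whole-cell RNA. The remaining 50 genes summed to 1103 CPM (1090 to 1115) in the AF357425-High pulldown, against 1432 CPM (1418 to 1446) in the AF357425-Low pulldown, against 3369 CPM (3345 to 3393) and 3100 CPM (3076 to 3123) in whole-cell RNA, by library totals. After TMM scaling the 2 pulldown sums were nearer to each other, at 1225 CPM in AF357425-High, against 1288 CPM in AF357425-Low. The polymerase I group summed to 174.5 CPM (169.5 to 179.7) in the AF357425-High pulldown, against 266.6 CPM (260.5 to 272.7) in the AF357425-Low pulldown, and Taf1d alone made up 45.5 and 107 CPM of it. After TMM scaling the group summed to 194 CPM in the AF357425-High pulldown, against 239.8 CPM in the AF357425-Low pulldown.

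**Figure D5:**
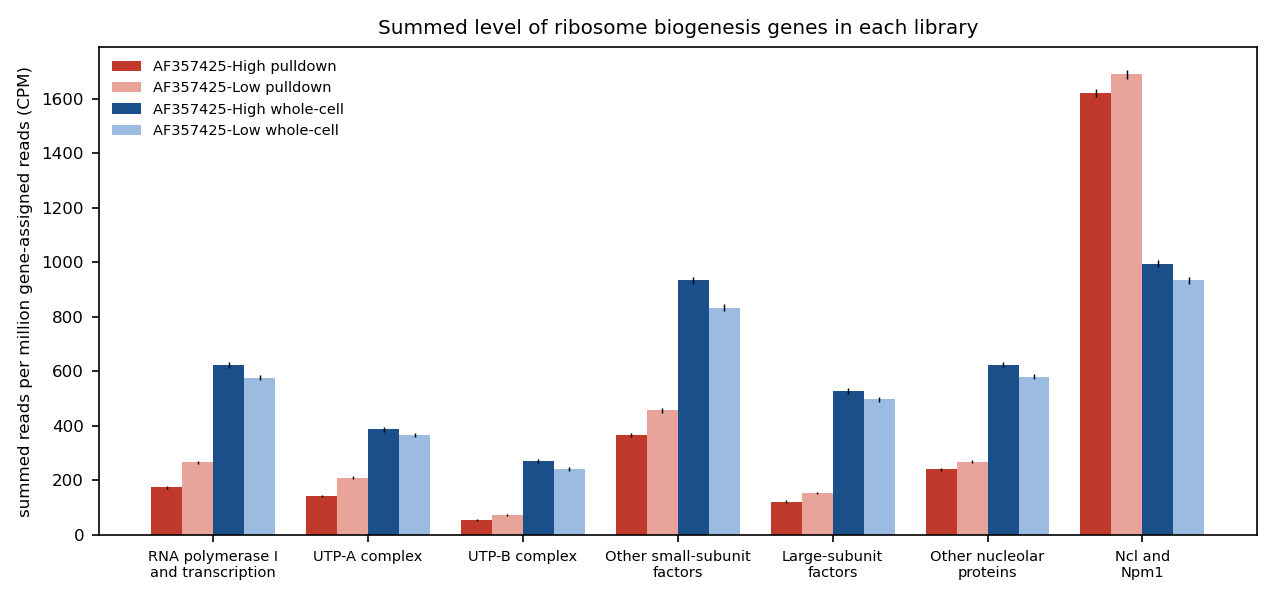
Summed reads of each role group scaled to 1e6 gene-assigned reads (CPM, y axis, from 0) in the 4 libraries, with exact Poisson 95% intervals as bars; each bar is 1 library. By library totals Ncl and Npm1, drawn apart, are higher in the pulldowns than in whole-cell RNA, and the other groups are lower. As for the median of the set, the level against whole-cell RNA depends on the scaling. CPM is not per length, so groups are not compared with each other.

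Of the 52 genes 5 hold annotated snoRNAs inside their span, 15 in all: Ncl, Wdr43, Tsr1, Taf1d and Gnl3. Of these 15 snoRNAs 8 could be matched to a row, and the 6 in Taf1d and 1 in Gnl3 had no matching symbol. Those in Ncl (Snora75 and Snord82) and the matched ones in Gnl3 (Snord69 and Snord19) had 0 reads in all 4 libraries. The limit set for a count of 0 equals 0.116 and 0.108 CPM in the AF357425-High and AF357425-Low pulldowns and 0.136 and 0.138 CPM in whole-cell RNA. It holds for reads assigned to these snoRNAs and does not bound their level in the cells. Reads that overlap both a snoRNA and its host could have been left out as ambiguous, which was not tested. In Wdr43 (chromosome 17, 71616178 to 71659031), Snord92 had 5 reads in the AF357425-High pulldown, against 148 in the AF357425-Low pulldown, against 7 and 5 in whole-cell RNA, and its pulldown log2 ratio was -4.48 (-6.12 to -3.22). Snord53 had 16 and 5 reads in the pulldowns and 26 and 18 in whole-cell RNA, and Gm22858 had 5 and 2 reads in the pulldowns and 6 and 5 in whole-cell RNA. Both stayed under a mean of 1 CPM in the pulldowns, so no ratio is given there. The host Wdr43 had a pulldown ratio of 0.02. Snord91a in Tsr1 had 0 and 5 reads in the pulldowns and 12 and 4 in whole-cell RNA. Snord92 and its host thus differed in their pulldown ratios.

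The 5 host genes had a median log2 ratio of AF357425-High over AF357425-Low of -0.34 in the pulldown and 0.16 in whole-cell RNA. The 47 others had medians of -0.01 and 0.05. In the pulldown 3 hosts were negative, while Ncl (0.01) and Wdr43 (0.02) lay near 0. In whole-cell RNA all 5 hosts were positive, as were 28 of the 47 others. The whole-cell intervals of Ncl (-0.04 to 0.04) and Gnl3 (-0.01 to 0.20) held 0. Relative to the median of all genes, the hosts' median ratio of pulldown over whole-cell RNA was 0.83 in AF357425-High and 1.77 in AF357425-Low, and that of the others -0.03 and 0.32. Gnl3, the nucleolar GTPase nucleostemin, had 767 reads in the AF357425-High pulldown, against 1289 in the AF357425-Low pulldown (-0.34, -0.47 to -0.21), and Tsr1, a small-subunit maturation factor, 501 and 919 (-0.46, -0.62 to -0.31). Taf1d also overlaps Cep295, whose pulldown ratio was -0.53 (-0.68 to -0.39), and 4931406C07Rik, with 0.74 (0.54 to 0.94). The part of these neighbours and of unmatched snoRNA reads in the values of Taf1d was not tested.

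A wider list of 101 ribosome biogenesis genes outside the set gave 92 measured genes in whole-cell RNA. None was past the line, where 0.118% of all genes were higher and 0.133% lower. Their median log2 ratio was 0.05, and 59 were positive (64.1%), against 49.8% of all genes. In the pulldown 87 were measured, with a median of -0.12. Past the 2-fold line, 3 were lower in AF357425-High and 0 higher, where 2.88% and 3.47% of all genes were. These were Taf1b, a subunit of the same selectivity complex as Taf1d, with 31 reads in the AF357425-High pulldown, against 160 in the AF357425-Low pulldown (-1.96, -2.56 to -1.39), and the large-subunit factors Ddx51, a helicase, with 48 and 187 (-1.55, -2.04 to -1.09), and Wdr74 with 40 and 153 (-1.52, -2.06 to -1.01). Of 11 exosome genes measured in the pulldown, which trim ribosomal RNA, only Exosc3 passed the line. It was lower with 45 and 180 reads (-1.59, -2.09 to -1.11), where 2.88% of all genes were lower. For the wider list, the pulldown was also set against whole-cell RNA, relative to the median of all genes. Of its 92 genes, 10 stood above 2-fold in both states and 12 below, where 13.6% and 12.5% of all genes did. The highest were the processing factor Esf1 (2.98 in AF357425-High and 3.62 in AF357425-Low) and Twistnb (2.09 and 2.63), a polymerase I subunit, and the lowest was Polr2f (-3.31 and -4.38), a subunit common to RNA polymerases. Next to it came Tbl3, of the UTP-B complex, in AF357425-High (-3.19, with -2.96 in AF357425-Low) and Taf1c, of the selectivity complex, in AF357425-Low (-3.65, with -2.91 in AF357425-High).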

How the data were processed

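For each gene the authors deposited counts, as raw whole numbers, with the pulldown libraries in one table and the whole-cell libraries in another. The submitters' processing notes name cutadapt 2.4, STAR 2.6.0c, HTSeq 0.9.1, StringTie 1.3.4 and GRCm38. Neither annotation nor strand setting is stated in the sources used here. HTSeq's summary lines were kept out of the gene values. Per these lines, 50.0% and 54.6% of the fragments of the AF357425-High and AF357425-Low pulldowns were assigned to genes, and 55.0% and 56.2% of those of whole-cell RNA. Ambiguous between genes were 9.38% and 8.54% in the pulldowns, against 1.05% and 1.09% in whole-cell RNA.

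Symbols were paired with 55450 IDs, and positions came from RefSeq on GRCm38.p6 by symbol. A gene counted as measured from a mean of 1 CPM upward. States were compared after TMM scaling in R 4.3.3 with edgeR 4.0.16; the AF357425-High and AF357425-Low factors were 0.900 and 1.11 in the pulldowns and 1.02 and 0.980 in whole-cell RNA. Pulldown and whole-cell RNA were compared by library totals. With 1 library per group no test was run. Each ratio has an exact Clopper-Pearson 95% interval from the counts (scipy 1.17.1), the difference of ratios a normal one on the log scale, and a gene was called where the whole interval lay beyond 2-fold. A count of 0 was limited at 3 reads. The computation was tested on simulated data.

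The members and lists were chosen with earlier results of these data known. Named genes were those past the line, the highest and lowest per comparison, the polymerase I genes and the snoRNA hosts; others were named after their values were seen. Levels per transcript length were not computed, since only gene spans were at hand, so the most abundant genes per length are not named. Alternatives were other scalings, filters of 5 CPM or none, a line of 1.5-fold and leaving out overlapping genes.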

Additional observations from a re-analysis of the deposited data

Results flagged for a closer look

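Dimt1 and Taf1d had state ratios that differed between pulldown and whole-cell RNA by more than 2-fold with their whole count interval, by -1.66 and -1.21 on the log2 scale, pulldown minus whole-cell. Each value rests on 1 library per group, so the difference was not tested against variation between cultures. Dimt1 had 48 reads in the AF357425-High pulldown, which sets its wide interval, while Taf1d had at least 1177 reads in every library.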

How the results depend on the processing

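No paired analysis was possible because each group has 1 library and the labels give no replicate numbers. Leaving out a replicate was not possible for the same reason. The whole-cell median of the 52 genes was 0.11 by library totals and 0.03 without genes that overlap another. Library totals moved the pulldown median of the 52 genes from -0.02 to -0.32. The median of the pulldown-minus-whole-cell differences moved from -0.10 to -0.47, with 4 genes past the line downward and 5.09% of all genes. By these totals the all-gene medians were -0.31 in the pulldown and 0.06 in whole-cell RNA. Such a shift applies to all genes alike. The 2 genes lower in the AF357425-High pulldown became 1 at a mean of at least 5 CPM, 0 without genes that overlap another and 5 at a line of 1.5-fold; Heatr1 kept its call under each scaling and filter, and Dimt1 under each setting in which it was measured. For pulldown against whole-cell RNA the scaling decides the level and, with TMM and median of ratios, turns the sign of the median, which by library totals was -1.99 for AF357425-High and -1.37 for AF357425-Low. The median in AF357425-High was 0.063 with TMM, 0.14 with median of ratios (DESeq2 1.42.0), -0.48 without mitochondrially encoded genes in the totals and -0.39 without the 20 most abundant genes. In AF357425-Low it was 0.28, 0.35, -0.0014 and -0.015 in the same order. Genes past the line in both states numbered 9 higher and 3 lower with TMM, with median of ratios or relative to the median of all genes, and 7 higher and 6 lower with either reduced total. By library totals a line of 1.5-fold gave 2 higher and 38 lower of 52. Leaving out overlapping genes gave 0 higher and 18 lower of 30. Over all genes, the 2-fold shares in both states were 1.42% higher and 60.6% lower by library totals. Relative to the median of all genes they were 13.6% and 12.5%. For the other settings of this comparison the share of all genes was not computed. The order of genes and their distance to the median of all genes do not depend on these scalings. Of the 3 genes recomputed singly (Heatr1, Dimt1 and Taf1d), Taf1d gained a call with library totals. Low pulldown counts limit Polr1b, Dimt1, Nop16 and Imp3 most, with 39 to 60 reads in the AF357425-High pulldown.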
